A study of Mus musculus with 192 samples.

Results

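miR-193b-5p is the 5p arm of the miR-193b hairpin, and the comparison described here is that of mouse embryonic stem cells (mESCs) transfected with a miR-193b-5p mimic with cells transfected with a scrambled mimic. Each group has 3 RNA-seq libraries, 1 from each of batches b1 to b3, so that 6 of the 192 samples of the series and 6 of its 48 mimic libraries enter it. The series follows mESCs through differentiation with retinoic acid and then transfects undifferentiated cells with mimics and inhibitors of miRs that a kinetic model had paired with target genes. For miR-193b-5p the paired gene is Pccb. All cells were of the E14 line, grown in 2i medium with LIF (inhibitors of MEK and GSK3 together with leukemia inhibitory factor), moved to 2i with 10% FBS shortly before transfection, transfected with Lipofectamine RNAiMax, and fixed in PFA before RNA extraction. The mimics are Pre-miR precursors, double-stranded RNAs that the cell processes to a mature miR. They were given at 100 nM, a concentration that the paper states for the transfection mix added to the medium. Cells were collected after 24 h. The control groups are the scrambled mimic and cells with no treatment, 3 libraries each.

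The mimic libraries fall into a first and a second set by how the submitters named them: names of the first set, which holds scrambled and no treatment, end in _RNA, and names of the second set, which holds miR-193b-5p, do not. Against scrambled, the mimic and the library set cannot be told apart. The comparison was therefore repeated against the 18 libraries of 6 other mimics of the second set (miR-135b-3p, miR-150-3p, miR-194-1-3p, miR-1946a, miR-216a-5p and miR-5615-3p), and those 6 mimics were compared with scrambled in turn. These comparisons share libraries: the first and the second share the 3 miR-193b-5p libraries, and the first and the third share scrambled. A further mimic of the second set, miR-1946b, was not among the 6. It enters as a further reference and in ranges over all other mimic libraries.

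A miR guides an Argonaute protein to mRNAs, mostly through pairing of its seed with the 3′ UTR, and TNRC6 proteins then recruit the deadenylases that lead to decay of the mRNA. The miR-193b hairpin gives a 5p and a 3p arm with unrelated seeds. Pccb encodes the beta subunit of propionyl-CoA carboxylase, the mitochondrial enzyme that passes propionyl-CoA from branched-chain amino acids and odd-chain fatty acids on to methylmalonyl-CoA.

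The mature sequences are shown because the seed decides which sites were searched. They are from RefSeq on GRCm38.p6, 5′ to 3′, with the seed (bases 2 to 8) in capitals. The hairpin lies on chromosome 16, with the 5p arm at chr16:13449533-13449554 and the 3p arm at chr16:13449570-13449591, both on the plus strand. miR-1946a was not matched.
miR-193b-5p: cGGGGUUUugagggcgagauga
miR-193b-3p: aACUGGCCcacaaagucccgcu
miR-135b-3p: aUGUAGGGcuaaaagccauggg
miR-150-3p: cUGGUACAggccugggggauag
miR-194-1-3p: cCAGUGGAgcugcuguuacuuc
miR-216a-5p: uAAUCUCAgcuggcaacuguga
miR-5615-3p: uGUCUCAGaaaacaaccaagga
No pair of these 7 miRs has the same seed.

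For miR-193b-5p the words searched on the mRNA strand were AAACCCCA (8mer, the seed match with A opposite base 1), AAACCCC (7mer-m8, the seed match), AACCCCA (7mer-A1) and AACCCC (6mer), each gene being put in the first class it held. Of the 21130 longest annotated 3′ UTRs per gene (GENCODE M21), 3.87% held the 8mer, 4.49% the 7mer-m8 as best match, 7.43% the 7mer-A1, 8.59% the 6mer and 75.6% none. The windows below show the matches in Pccb and in the 6 genes with an 8mer or 7mer-m8 in that 3′ UTR that fell most against scrambled among those called as falls in both comparisons. The match is in capitals, on the strand of the mRNA, and the coordinates are those of GRCm38.p6.
Pccb 8mer (chr9:100982093-100982122, minus strand, from base 577 of a 3′ UTR of 653 bases): attatgagctaattAAACCCCAtacctctt
Ctdsp1 8mer (chr1:74396580-74396609, plus strand, from base 1010 of 1701): ttttaggtgcctctAAACCCCAgatgtcac
Ston2 first 8mer (chr12:91636563-91636592, minus strand, from base 3144 of 6713): aatgagtgtggttcAAACCCCAgtgtcccc
Ston2 second 8mer (chr12:91633641-91633670, minus strand, from base 6066 of 6713): ttctgcctcagatgAAACCCCAgttctcac
Klf11 7mer-m8 (chr12:24662417-24662446, plus strand, from base 1968 of 2326): ccaattagatttagAAACCCCttttctgaa
Map1a 7mer-m8 (chr2:121308301-121308330, plus strand, from base 228 of 2745): tcatctgaagcctgAAACCCCtagagcaac
Stat3 7mer-m8 (chr11:100885423-100885452, minus strand, from base 3361 of 3701): ttccccaagcccttAAACCCCtgctttcct
Tacc2 first 7mer-m8 (chr7:130728977-130729006, plus strand, from base 126 of 2378): caagaaacccacagAAACCCCcccagtgaa
Tacc2 second 7mer-m8 (chr7:130751254-130751283, plus strand, from base 1655 of 2378): ccaccgaggtggagAAACCCCcaggccttc
The Stat3 match lies in 1 of 4 annotated transcripts with a 3′ UTR, and both Ston2 matches lie in 1 of 2. The longest 3′ UTR of Tacc2 is that of 1 of 11 transcripts, and the Tacc2 matches lie in different exons of it. The Pccb match lies in both annotated transcripts. A match is a string of letters and was not measured as a site.

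The miR-193b-5p libraries hold 9987534 to 17497189 counts, scrambled 10295309 to 19956820, and the 18 libraries of the other second-set mimics 8673011 to 37413408. Thinned to 1 depth, the miR-193b-5p libraries show 17527 to 17612 genes and the 18 others 17434 to 17886. Scrambled runs from 15247 to 17814, and its second replicate holds the lowest number. Genes encoded in the mitochondrial genome take 1.44% to 1.83% of counts with miR-193b-5p, 1.39% to 2.11% in the 18 others and 0.862% to 1.3% in scrambled. The summed level of the 14 naive pluripotency markers, in counts scaled by TMM to 1000000 per library (CPM), is 6860 to 7700 with miR-193b-5p, 6690 to 7480 with scrambled and 6370 to 7360 in the 18 others, so the libraries carry the markers of the labelled cell type at overlapping levels. In these bulk libraries fewer cells that express a gene and less RNA per cell cannot be told apart.

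Pccb mRNA did not pass the test in any comparison. With the miR-193b-5p mimic its level was 32.2, 30.3 and 33.1 CPM in batches 1, 2 and 3, and with scrambled it was 35.3, 27.3 and 31.8 CPM. No treatment gave 34.4, 27.0 and 29.3 CPM, and the 18 libraries of the other mimics ran from 26.9 through a median of 31.9 to 37.6 CPM. All 3 miR-193b-5p values lie inside the range of scrambled, of no treatment and of the 18 others. The log2 fold change of Pccb was 0.02 (standard error 0.12, adjusted p = 0.95) against scrambled and -0.03 (standard error 0.07, adjusted p = 0.866) against the 6 mimics, with edgeR's quasi-likelihood test and Benjamini-Hochberg adjustment. These signs are not stable, since leaving out the second miR-193b-5p library turned them to -0.04 and 0.03. The study's model placed the effect of a miR on protein synthesis, and the study used mRNA as a first readout. PCCB was not among the proteins it measured after transfection, so these levels do not address an effect on translation.

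**Figure D1:**
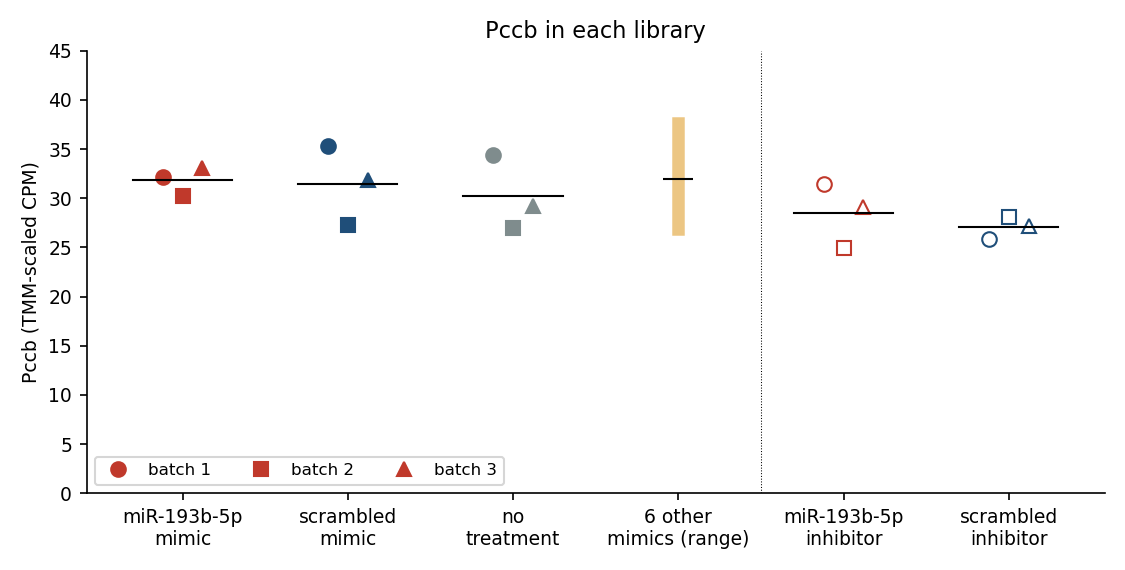
Level of Pccb in each library, in TMM-scaled CPM, with symbols for batches 1 to 3 and a line at each group's mean; the bar gives the range of 18 libraries of 6 other second-set mimics with their median, and open symbols are the inhibitor experiment, which was scaled separately. The miR-193b-5p mimic libraries sit at 30.3 to 33.1, inside the scrambled range of 27.3 to 35.3.

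The inhibitor of miR-193b-5p (a miRCURY LNA Power Inhibitor, which binds the mature miR) was given for 48 h, at a higher concentration than the mimic, and has its own scrambled inhibitor. Pccb was at 31.4, 24.96 and 29.1 CPM with the inhibitor and at 25.9, 28.1 and 27.2 CPM with scrambled inhibitor, where batch 1 here is labelled b1b. The groups overlap, and the log2 fold change was 0.07 (edgeR, adjusted p = 1.0). Without the first library of either group it was -0.04.

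The genes listed around Pccb likewise did not move as a group. A list for propionyl-CoA carboxylase, its biotin and cobalamin cofactors and nearby steps, which also holds Slc25a13 and Aldh6a1, had 11 tested genes. None of them passed the test against scrambled or against the 6 mimics. Their median log2 fold changes were -0.03 and -0.02, beside 0.01 and 0.00 over all genes tested. Single members ran from -0.91 to 0.10 against scrambled and from -0.56 to 0.09 against the 6 mimics. Of 21 genes of branched-chain amino acid breakdown none passed against scrambled (median 0.12) and 1 rose against the 6 mimics (median 0.03), namely Dbt, the acyltransferase subunit of the branched-chain ketoacid dehydrogenase. None of the 8 genes that the study paired with its transfected miRs passed in either comparison (medians 0.02 and 0.03).

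With the miR-193b-5p mimic 50 genes rose against scrambled (0.4% of 12485 tested) and 107 fell (0.857%) at an adjusted p under 0.05. Against the 6 other second-set mimics 400 genes rose (3.14% of 12725) and 409 fell (3.21%). A set of 44 genes fell in both (0.354% of the 12446 tested in both), which is 41.1% of the falls against scrambled and 10.8% of those against the 6 mimics. The 11 genes that rose in both (0.0884%) are 22% of the rises against scrambled and 2.75% of those against the 6 mimics. The reference mimics have seeds of their own. Of genes with an 8mer for miR-5615-3p, miR-135b-3p or miR-194-1-3p, 6.18%, 6.08% and 4.12% rose against the 6 mimics. With no match the shares were 2.69%, 2.68% and 2.73%. For miR-216a-5p and miR-150-3p they were 3.13% and 3.06%, beside 2.74% and 3.15% with no match. By this comparison alone, a rise cannot be told apart from a fall in the reference mimics. The middle 95% of log2 fold changes over all genes spanned -0.63 to 0.63 against scrambled and -0.42 to 0.37 against the 6 mimics. Changes named below lie on both sides of these bounds, such as -0.85 for Ctdsp1 and -0.34 for Map1a against the 6 mimics. Most genes named as falls or rises were picked by the size of their change against scrambled.

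The counts rest on single batches or libraries. Against scrambled each batch holds 1 library per group, so leaving out either library also takes its batch partner out of the estimate. The parts of the 2 libraries of a batch cannot be told apart in this way. Against scrambled, leaving out the second scrambled library gave 150 rises and 313 falls, and leaving out the second miR-193b-5p library gave 148 and 314; the rises also came to 103 without the third miR-193b-5p library and to 18 and 110 without the first and the third scrambled library. Against the 6 mimics, leaving out 1 miR-193b-5p library gave 73 to 175 rises and 185 to 225 falls, leaving out the whole of batch 1 gave 21 and 58, and leaving out batch 3 gave 56 and 136. The 44 falls in both became 13 and 96 without the first and the second scrambled library, 17 and 79 without the first and the second miR-193b-5p library and 23 without batch 1. The 11 rises in both became 2, 36 and 20 without the first, the second and the third scrambled library, 5 and 17 without the first and the second miR-193b-5p library, and 3 and 5 without batch 1 and batch 3. With no treatment in place of scrambled, none rose and 4 genes fell (Prrc2a, Sh3d19, Pom121 and Nfe2l1), with 2065 genes at an unadjusted p under 0.05.

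The reference libraries themselves differed in more genes, over more libraries. The 6 other second-set mimics differed from scrambled in 487 genes that were higher (3.82% of 12754) and 547 that were lower (4.29%). Without the second scrambled library these were 182 and 119, and without the third 809 genes were higher, so the shares that follow rest on those libraries too. Of the 50 genes that rose with miR-193b-5p against scrambled, 36 (72.0%) were also higher in those 6 mimics, and of the 107 that fell 28 (26.2%) were also lower in them. Among the genes that passed both comparisons this held for 9 of the 44 falls and 5 of the 11 rises. For example Neat1, a nuclear long noncoding RNA, was higher with miR-193b-5p than with scrambled by 0.82 on the log2 scale, and higher by 0.99 in the 6 other mimics.

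**Figure D2:**
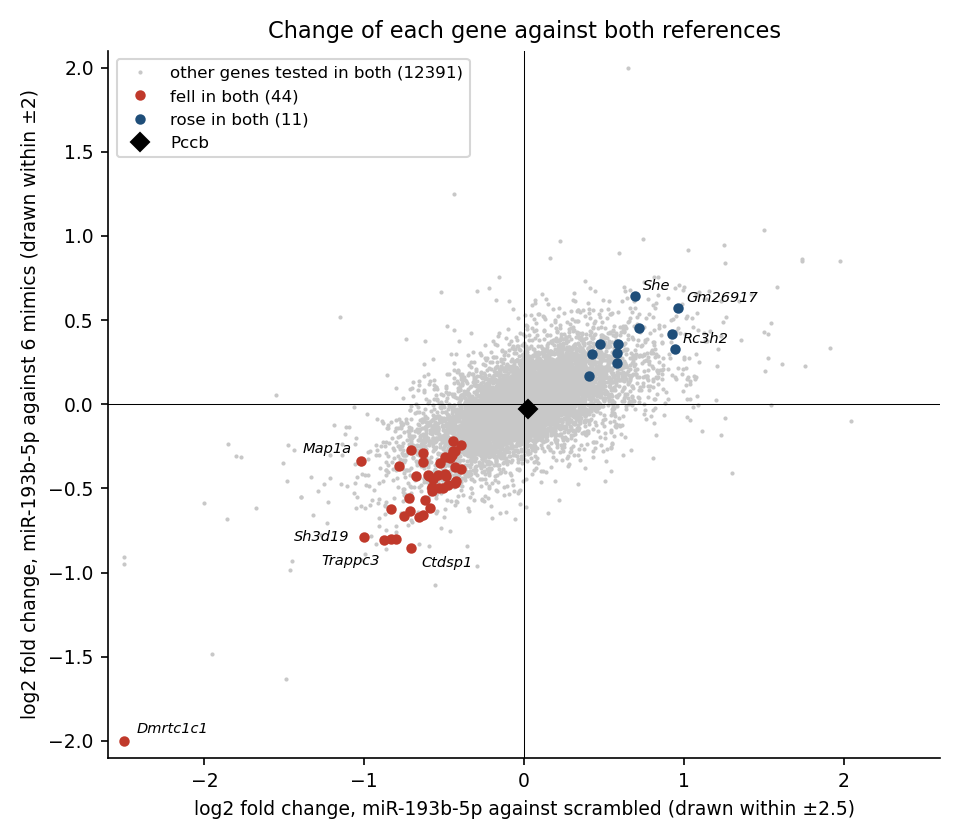
Log2 fold change of each gene with the miR-193b-5p mimic against scrambled (horizontal axis) and against 6 other second-set mimics (vertical axis), with the 44 genes that fell in both in red, the 11 that rose in both in blue and Pccb as a black diamond; both axes share the 3 miR-193b-5p libraries, so points near the diagonal carry no independent support. Pccb lies at the centre, and values beyond the frame, such as that of Dmrtc1c1, are drawn at its edge.

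The genes that fell in both comparisons fell by a moderate amount. Over the 43 of them with a mean count of at least 50 and 1 direction in all 3 batches, the log2 fold change against scrambled ran from -1.02 to -0.39 with a median of -0.58, and that against the 6 mimics from -0.85 to -0.22 with a median of -0.44. In 42 of the 44 the miR-193b-5p libraries lay below all 3 scrambled libraries (7.16% of all genes tested against scrambled). In 21 of the 44 they lay below all 18 libraries of the other second-set mimics (0.723% of all genes tested there), and in 9 below all 44 other mimic libraries (0.165%).

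Trappc3, Ogfr and Ctdsp1 are among those 9. Trappc3, a subunit of the TRAPP complex that tethers transport vesicles, was at 17.3, 15.7 and 17.01 CPM with miR-193b-5p and at 30.9, 33.0 and 27.9 CPM with scrambled, and the 18 other libraries ran from 25.01 through 28.9 to 33.5 CPM. All 3 mimic libraries are below the other 44 mimic libraries compared, the lowest of which was at 17.6 CPM. Its log2 fold change was -0.88 (standard error 0.13, adjusted p = 0.0204, edgeR) against scrambled and -0.80 (standard error 0.06, adjusted p = 3.41e-07) against the 6 mimics. Ogfr, the opioid growth factor receptor, was at 18.6, 20.5 and 18.5 CPM, against 32.5, 42.6 and 28.2 CPM with scrambled and 24.2, 28.6 and 35.0 CPM as the lowest, median and highest of the 18. Its groups do not overlap either, and it fell by 0.83 and by 0.62 on the log2 scale (adjusted p = 0.0238 and 5.06e-06). Ctdsp1, a phosphatase of the C-terminal domain of RNA polymerase II, has the 8mer shown above. It was at 31.5, 44.1 and 48.7 CPM with miR-193b-5p, at 58.7, 66.1 and 76.6 CPM with scrambled, and between 59.3 and 93.1 CPM (median 78.0) in the 18 others. The mimic values are below all of these, in spite of a wide spread among themselves, and the log2 fold changes were -0.71 (standard error 0.11, adjusted p = 0.0238) and -0.85 (standard error 0.06, adjusted p = 1.23e-07).

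Sh3d19, Prrc2a and Pom121 fell as much and were the most stable against scrambled. Sh3d19, an adaptor protein with SH3 domains, was at 85.3, 67.4 and 88.9 CPM with the mimic, at 151, 175 and 154 CPM with scrambled and between 118 and 154 CPM (median 137) in the 18 others. Prrc2a, an RNA-binding protein, was at 414, 495 and 533 CPM, at 771, 890 and 893 CPM with scrambled and between 555 and 965 CPM (median 871) in the 18 others. Pom121, a membrane-anchored nucleoporin, was at 90.5, 95.5 and 114 CPM, at 170, 161 and 188 CPM with scrambled and between 147 and 218 CPM (median 172) in the 18 others. In each of the 3 genes every miR-193b-5p library lies below every scrambled library and below all 18 others. The lowest of all 44 other mimic libraries, a miR-1946b library in each gene, was at 52.4, 504 and 110 CPM. It lies below all miR-193b-5p libraries in Sh3d19 and inside their range in Prrc2a and Pom121. The log2 fold changes against scrambled were -0.998 for Sh3d19 (adjusted p = 0.00712, edgeR), -0.83 for Prrc2a and -0.80 for Pom121 (adjusted p = 0.00465 for both), and those against the 6 mimics were -0.79, -0.80 and -0.80. Each kept its call against scrambled in 13 of 14 other ways of processing.

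Stat3, Klf11 and Ston2 also hold a match. Stat3, the transcription factor that LIF activates in mESCs, was at 100, 101 and 118 CPM with the mimic and at 161, 182 and 181 CPM with scrambled, with 113 to 191 CPM (median 157) in the 18 others. It lay below scrambled in every library but overlapped with the lowest of the 18, and fell by 0.72 against scrambled (standard error 0.09, adjusted p = 0.00722, edgeR) and by 0.56 against the 6 mimics (standard error 0.06, adjusted p = 1.83e-05) on the log2 scale. Klf11, a transcription factor of the Krüppel-like family, was at 31.3, 28.1 and 38.5 CPM with the mimic, at 44.5, 48.3 and 58.4 CPM with scrambled and between 40.6 and 57.8 CPM (median 51.4) in the 18 others, without overlap. Its log2 fold changes were -0.63 (adjusted p = 0.0313) and -0.66 (adjusted p = 1.23e-05). Ston2, an endocytic adaptor, whose 3′ UTR has the 8mer at both positions shown, was at 27.6, 27.3 and 32.6 CPM with the mimic, at 39.4, 47.6 and 47.5 CPM with scrambled and between 31.5 and 51.3 CPM (median 41.8) in the 18 others, so that 1 mimic library overlaps with the 18. It fell by 0.62 (adjusted p = 0.0368) and by 0.57 (adjusted p = 3.79e-05) on the log2 scale.

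Other genes fell further against scrambled than against the 6 mimics. Map1a, a microtubule-associated protein, was at 16.9, 22.5 and 17.2 CPM with miR-193b-5p and at 31.9, 46.97 and 36.3 CPM with scrambled, but between 16.6 and 32.9 CPM (median 22.9) in the 18 others. The mimic libraries are clear of scrambled and overlap with the 18, and the log2 fold changes were -1.02 (standard error 0.12, adjusted p = 0.0071, edgeR) and -0.34 (standard error 0.09, adjusted p = 0.0279). In the 6 other mimics Map1a was itself lower than in scrambled, with a log2 fold change of -0.69 (adjusted p = 7.86e-05). Hgs, a subunit of ESCRT-0 that sorts ubiquitinated cargo, fell by 0.78 and by 0.37 on the log2 scale, with -0.41 between the 6 mimics and scrambled. Nefh, the heavy neurofilament chain, fell by 0.71 and by 0.27, with -0.43 between the 6 mimics and scrambled, and its libraries overlap with scrambled (37.5 to 62.7 CPM against 60.8 to 109 CPM).

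Gmppa, a subunit related to GDP-mannose pyrophosphorylase, fell by 0.75 and by 0.67 on the log2 scale (adjusted p = 0.0238 and 2.9e-05, edgeR), and Plin2, a coat protein of lipid droplets, by 0.71 and by 0.64 (adjusted p = 0.0238 and 1.38e-05). Tacc2, a centrosomal coiled-coil protein with the 7mer-m8 at both positions shown, fell by 0.60 and by 0.42 (adjusted p = 0.0204 and 0.000508). Those positions lie in the 3′ UTR of 1 of its 11 transcripts, and its coding sequence also holds a 7mer-m8. Whether these are the same bases was not tested. The other genes below all 44 further mimic libraries were named after their values were seen. Stk40, a pseudokinase, was at 43.3, 46.7 and 50.6 CPM with the mimic and at 51.9 CPM in the lowest of the 44. Pabpc4, a cytoplasmic poly(A)-binding protein, was at 274, 265 and 287 CPM, and the lowest of the 44 was at 369 CPM. Srm, which makes spermidine, was at 94.9, 107 and 115 CPM, with 119 CPM as the lowest of the 44. The remaining 3 were Anp32b, Cttn and Vim. None of the 9 but Ctdsp1 holds an 8mer or 7mer-m8 of miR-193b-5p in its longest 3′ UTR.

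Dmrtc1c1 had 0 counts in all 3 miR-193b-5p libraries, which allows up to 3 counts in each, and 5.78, 3.96 and 6.01 CPM with scrambled. The 18 others ran from 0 through 5.04 to 9.21 CPM, 2 of them at 0, and no treatment gave 0.175, 2.28 and 8.39 CPM. The low values are thus not particular to the miR-193b-5p libraries. The gene passed both tests as a fall, but it has a close copy, Dmrtc1c2, which was at 6.48, 7.20 and 11.1 CPM with miR-193b-5p and at 4.17, 9.71 and 8.83 CPM with scrambled, and the split of reads between the copies is uncertain. It was named after its values were seen.

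**Figure D3:**
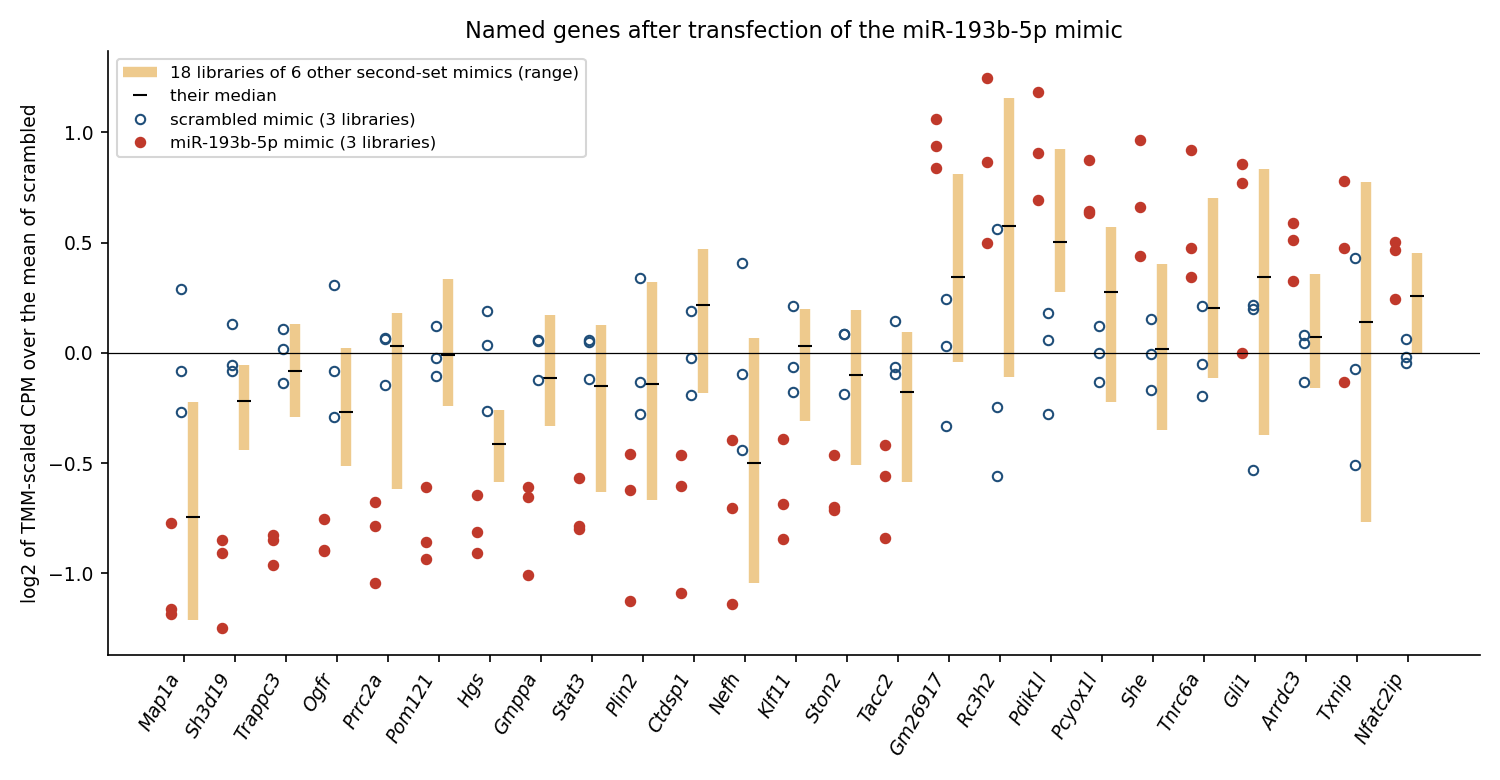
Level of each named gene as log2 of TMM-scaled CPM over the mean of the 3 scrambled libraries, for the 3 miR-193b-5p libraries (red), the 3 scrambled libraries (open blue) and 18 libraries of 6 other second-set mimics (bar for the range, dash for the median); genes that fell come first and genes that rose last. Trappc3, Ogfr and Ctdsp1 lie below both references without overlap, and for Map1a, Hgs and Nefh the median of the 18 libraries is itself below all 3 scrambled libraries.

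Of the 11 genes that rose in both comparisons, 8 were above all 3 scrambled libraries (7.59% of all genes tested), 3 above all 18 libraries of the other second-set mimics (0.377%) and 0 above all 44 other mimic libraries (0.0393%). She, an SH2-domain adaptor, was at 32.6, 46.97 and 38.01 CPM with the mimic, at 21.4, 26.8 and 24.0 CPM with scrambled and between 18.9 and 31.9 CPM (median 24.4) in the 18 others. Pcyox1l was at 41.8, 35.4 and 35.6 CPM with the mimic, at 24.8, 20.8 and 22.8 CPM with scrambled and between 19.5 and 33.8 CPM (median 27.6) in the 18 others. Both genes are above both references in every library, although Pcyox1l was also higher in the 6 other mimics than in scrambled, by 0.27 (adjusted p = 0.049, edgeR). She rose by 0.69 (standard error 0.12, adjusted p = 0.0273, edgeR) and by 0.64 (standard error 0.05, adjusted p = 4.18e-07) on the log2 scale, and Pcyox1l by 0.72 (adjusted p = 0.0238) and by 0.46 (adjusted p = 0.00091). Gm26917, a long noncoding RNA gene and the third of the 3, was at 971, 908 and 1058 CPM, against 601, 403 and 518 CPM with scrambled and at most 889 CPM in the 18 others. With no treatment Gm26917 was at 474, 479 and 1008 CPM, the last inside the range with the mimic. Over all 44 other mimic libraries Gm26917 reached 1166.5 CPM. Its neighbour Gm42418, named after its values were seen, was at 6464, 4535 and 2515 CPM against 1098, 1235 and 1017 CPM with scrambled, and between 675 and 7554 CPM in the 18 others; it passed against scrambled (adjusted p = 0.00465, edgeR) and not against the 6 mimics (adjusted p = 0.755).

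Tnrc6a, whose protein joins Argonaute to the deadenylases, rose from 107, 119 and 143 CPM with scrambled to 156, 233 and 171 CPM with the mimic. The groups do not overlap, but the 18 others reach 200 CPM. The log2 fold changes were 0.59 (adjusted p = 0.0492, edgeR) and 0.36 (adjusted p = 0.000461), and in the 6 other mimics against scrambled the value was 0.22 (adjusted p = 0.0867). It was the 1 gene of 16 of the miR pathway that passed in either comparison (list medians 0.00 and 0.02). Arrdc3 and Txnip, both alpha-arrestins, rose by 0.48 and 0.42 against scrambled and by 0.36 and 0.30 against the 6 mimics. Rc3h2, Pdik1l, Gli1 and Nfatc2ip rose by 0.94, 0.93, 0.58 and 0.41 against scrambled and by 0.33, 0.42, 0.30 and 0.17 against the 6 mimics, and 3 of them (Rc3h2, Pdik1l and Nfatc2ip) also passed as higher in the 6 mimics against scrambled.

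Pathways that an introduced double-stranded RNA could touch were read from lists, beside 0.4% of all genes that rose and 0.857% that fell against scrambled, and 3.14% and 3.21% against the 6 mimics. Of the 24 interferon and double-stranded RNA response genes 13 could be tested and 3 were at 0 in all 6 libraries. None passed against scrambled (median -0.01), and Stat2 was among the members that rose against the 6 mimics (median 0.08). Among 17 tested genes of the integrated stress response none passed against scrambled (median -0.02), and Atf4 and Chac1 fell against the 6 mimics by 0.17 and by 0.64 on the log2 scale (list median -0.13). Of 19 tested p53 targets, with medians of 0.04 and 0.00, 1 fell against the 6 mimics, Trp53inp1, by 0.57 on the log2 scale, and the 6 mimics were higher than scrambled in it, at 0.30 (adjusted p = 0.028, edgeR). The 25 cell cycle genes, with medians of -0.01 and -0.02, gave no call against scrambled, whereas Ccnd1 rose and Aurka and Ccnd3 fell against the 6 mimics.

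Pluripotency and signalling lists held a few calls each, to be read against the same shares of all genes (0.4% and 0.857% against scrambled, 3.14% and 3.21% against the 6 mimics). In lists of this size a single member is a share above these. Klf5 rose against scrambled, as it did in the 6 other mimics, and Klf4, Nanog and Prdm14 rose against the 6 mimics, out of 14 naive pluripotency genes with medians of 0.14 and 0.10. Of 9 tested primed pluripotency genes (medians -0.05 and -0.03) Dnmt3b and Lef1 fell against the 6 mimics. Of 14 tested genes of the MAPK and FGF feedback (medians 0.17 and 0.03) Dusp4, Egr1 and Etv5 rose and Etv4 fell against the 6 mimics. Egr1, an immediate early transcription factor, rose by 0.87 on the log2 scale against the 6 mimics, but its value was 0.16 against scrambled (adjusted p = 0.636, edgeR), and the 6 mimics were themselves lower than scrambled, at -0.74 (adjusted p = 0.0116). Of up to 10 tested WNT feedback genes (medians 0.05 and -0.03) Ccnd1 rose and Lef1 fell against the 6 mimics. Lefty1 was the 1 of 12 targets of TGF-beta and BMP that passed, as a rise of 0.54 against the 6 mimics (list medians -0.00 and 0.05). Its value was 0.09 against scrambled (adjusted p = 0.799, edgeR), and the 6 mimics were lower than scrambled, at -0.47 (adjusted p = 0.0192). None of the tested markers of neuroectoderm (4), mesoderm (2), trophoblast (2), fibroblasts (3) and two-cell-like cells (3) passed in either comparison. Lamb1, of 5 of extraembryonic endoderm, rose against the 6 mimics.

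Structural and metabolic lists differed by reference, with 0.4% and 0.857% of all genes called as rises and falls against scrambled and 3.14% and 3.21% against the 6 mimics. Of 16 tested cytoskeleton and adhesion genes (medians -0.05 and -0.03) Tln1 and Vim fell against scrambled, and Actg1, Tagln2, Tln1 and Vim fell against the 6 mimics. Of 15 cholesterol synthesis genes (medians 0.09 and 0.06) Dhcr7, Insig1 and Sc5d rose against the 6 mimics and none passed against scrambled. Of 3 tested histone genes (medians -0.03 and 0.24) Hist1h1c rose against the 6 mimics by 0.70, and of up to 10 snoRNA host and nuclear noncoding RNAs (medians -0.20 and -0.29) the 1 call was Neat1 against scrambled. Of the 13 mitochondrially encoded genes 5 rose against scrambled (median 0.50), none passed against the 6 mimics (median -0.14), and 6 were higher in the 6 mimics than in scrambled (median 0.63). Of 22 cytosolic ribosomal protein genes Rpl11, Rpl32, Rps18 and Rps19 fell against scrambled (median -0.27), none passed against the 6 mimics (median -0.06), and 4 were lower in the 6 mimics than in scrambled (median -0.20). Of the 20 genes that the study set aside for differing between scrambled and no treatment, 4 rose against scrambled (median 0.28), 1 rose against the 6 mimics (median 0.04), and 11 were higher and 3 lower in the 6 mimics than in scrambled. The study chose those 20 on libraries that include scrambled, so they are not independent evidence of a direction.

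Genes with a match to the miR-193b-5p seed were read as classes, by the share called and by the median. Against the 6 mimics 531 tested genes held the 8mer in the longest 3′ UTR, and of these 5.46% fell and 3.01% rose, and their log2 fold changes had a median of -0.00, beside 0.00 over all genes tested. Among 8685 genes with no match 2.61% fell and 3.19% rose. The 7mer-m8, 7mer-A1 and 6mer classes gave 5.63%, 5.03% and 4.64% that fell and 2.15%, 3.32% and 4.47% that rose. Against the 6 mimics the share that fell is higher in all 4 classes with a match than without one, the share that rose is higher in 2 of them (7mer-A1 and 6mer), and the class medians lie between -0.00 and 0.01. Within the batches, the median of the 8mer genes was -0.01, 0.01 and 0.01 against the 6 mimics. The 8mer genes also have longer 3′ UTRs, with a median of 2679 bases against 1044 for genes with no match. In 3 equal groups by 3′ UTR length (bounds of 828 and 2034 bases) 10.4%, 6.38% and 4.39% of the 8mer genes fell, from the shortest group, with 48 genes, to the longest, against 2.46%, 2.96% and 2.37% of genes with no match. For the 7mer-m8 the shares were 1.69%, 6.92% and 5.7%, so that its share in the shortest group, of 59 genes, is below that with no match.

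What part 3′ UTR length, base composition or the library set has in these shares was not tested. Other readings of the match follow. With the word in the coding sequence instead, 5.05% of 515 genes with the 8mer fell and 2.8% of 8007 with none. Windows of 7 bases moved along miR-193b-5p gave 5.55% that fell for bases 2 to 8, among 1135 genes, and from 2.57% (bases 6 to 12) to 5.26% (bases 12 to 18) for the other windows. Against scrambled 1.14% of 525 genes with the 8mer fell and 1.34% with the 7mer-m8, but 0.306% with the 7mer-A1 and 0.506% with the 6mer, beside 0.899% with no match, so the classes lie on both sides of it. In the 6 mimics against scrambled, which hold no miR-193b-5p, the share that fell was 5.44% with the 8mer and 4.28% with no match for the 3′ UTR, and 8.12% and 3.33% for the coding sequence. For the 3p arm 2.46% of 244 genes with the 8mer fell and 6.97% rose against the 6 mimics, beside 3.08% and 2.92% with no match. These shares are 6 and 17 genes. The other classes of the 3p arm held similar shares in both directions. They were 3.24% and 3.31% with the 7mer-m8, 3.72% and 3.72% with the 7mer-A1, and 4.04% and 3.95% with the 6mer.

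**Figure D4:**
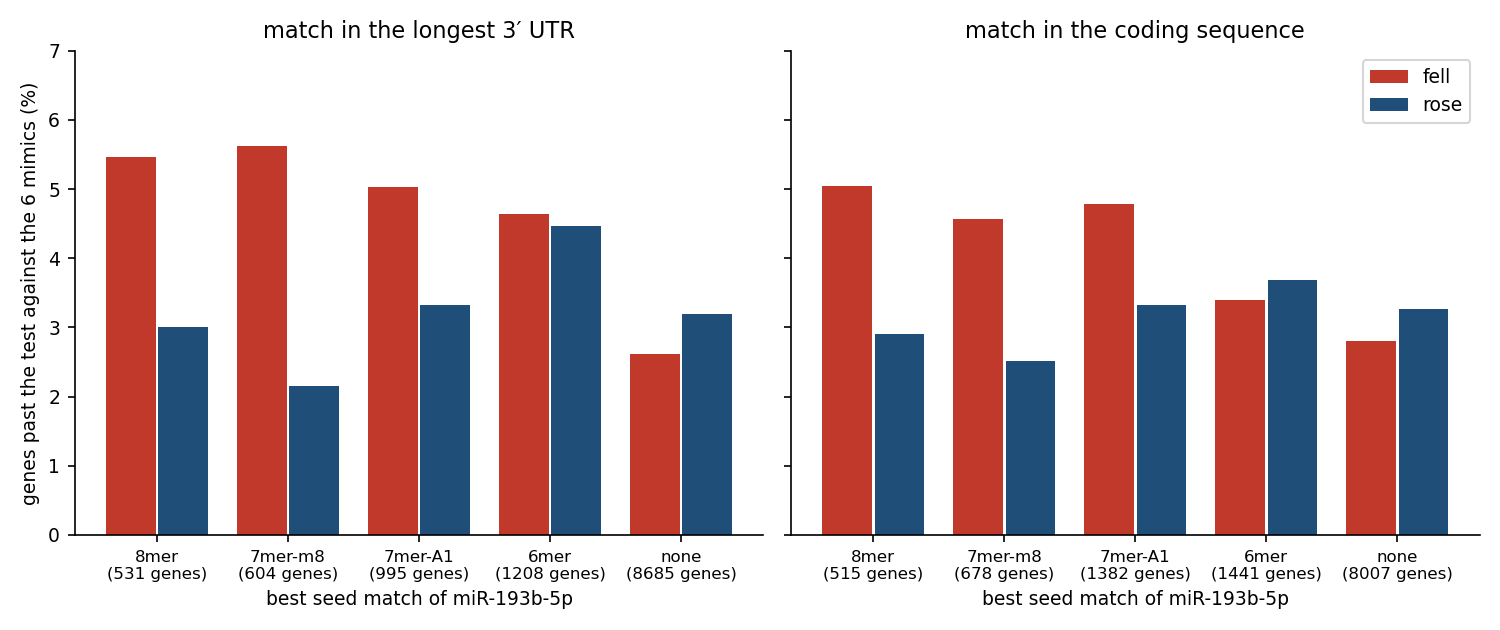
Percent of tested genes that fell (red) and rose (blue) with the miR-193b-5p mimic against 6 other second-set mimics, by the best seed match in the longest 3′ UTR (left) and in the coding sequence (right), with the number of genes under each class. Of the 8mer genes 5.46% fell in the left panel and 5.05% in the right, against 2.61% and 2.8% of genes with no match.

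Other mimics of the second set give the scale of a class shift in the same libraries, each tested against the remaining 6. Of the genes with an 8mer to the mimic's own seed 35.4% fell with miR-135b-3p (2.81% with no match), 15.4% with miR-5615-3p (2.96%), 13.2% with miR-194-1-3p (1.5%), 5.06% with miR-216a-5p (0.192%) and 0.917% with miR-150-3p (0.055%). Each share stands beside that mimic's own share with no match, and in all 5 of these mimics the step between the shares is a larger multiple than the 5.46% against 2.61% of miR-193b-5p. For miR-150-3p the shares are 3 of 327 and 5 of 9085 genes, so its multiple rests on few calls. Read as a difference, its step is smaller than that of miR-193b-5p. The median log2 fold change of the 8mer genes was between -0.15 and -0.02 with these 5 mimics and -0.00 with miR-193b-5p. These steps were not tested against each other. The number of genes called gives another order: 832 rose and 731 fell with miR-135b-3p, 581 and 596 with miR-5615-3p, 428 and 391 with miR-194-1-3p, 400 and 409 with miR-193b-5p, 42 and 99 with miR-216a-5p, 9 and 93 with miR-1946a and 3 and 18 with miR-150-3p. No level of transfected miR was measured in these cells, so the dose that reached each culture is not known.

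Among the genes that fell in both comparisons, 9 of 44 (20.5%) held an 8mer or 7mer-m8 in the longest 3′ UTR, beside 9.47% of all genes tested in both, and 13 (29.5%) held one in the coding sequence, beside 9.9%. Counting any annotated 3′ UTR the numbers were 11 (25%) and 10.9%. Sh3d19, Ogfr and Prrc2a hold the 8mer in the coding sequence and no 8mer or 7mer-m8 in any annotated 3′ UTR, and Trappc3 and Plin2 hold no match in either. Arrdc3 shows that a 7mer-m8 in the 3′ UTR is also found in a gene that rose.

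No gene passed the test between the miR-193b-5p inhibitor and the scrambled inhibitor (0 rose and 0 fell, 0% of 13089 tested by edgeR), with 290 genes (2.22%) at an unadjusted p under 0.05, and DESeq2 called 1 rise and 2 falls. Without the first library of either group the numbers changed to 206 to 208 rises and 40 to 47 falls, so that the count of 0 rests on those libraries (batch b1b). Of the 44 genes that fell with the mimic in both comparisons, 29 had the opposite sign with the inhibitor (median log2 fold change 0.04). Of the 11 that rose 7 did (median -0.09). Over all genes the median was -0.00, so the signs were about equally common, and a reversal was not tested. Ctdsp1, Trappc3 and Ogfr had inhibitor log2 fold changes of 0.14, 0.13 and 0.17, and Stat3 and Klf11 had -0.08 and -0.03, none of them past the test.

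Both arms of miR-193b are scarce in the untransfected E14 cells of the series. In 32 small RNA libraries over 8 times of retinoic acid, with 1046533 to 16869744 miR counts each, the 5p arm had 0 to 38 counts (median 8.5; 0 to 5.38 CPM of all miR counts), and the 3p arm had 7 to 339 counts (1.61 to 39.2 CPM). In each library the 5p arm ranked between 452 and 852 of 1978 miRs listed and the 3p arm between 348 and 575. The list includes miRs with 0 counts, so the ranks are not positions among detected miRs. In the 72 h library of replicate 7 the 5p arm had 0 counts and ranked 563. The median of 4 libraries was 0.701 CPM at 0 h, 2.65 CPM at 24 h and 1.27 CPM at 96 h for the 5p arm, and 15.6, 25.2 and 31.8 CPM for the 3p arm. The libraries of replicate 7 stand apart in the 3p arm, with 16.2 CPM at 0 h, 2.52 CPM at 24 h and 4.198 CPM at 96 h, below the other 3 libraries at every time from 6 h on, so the medians do not describe all replicates. At these counts of the 5p arm, changes between times are not resolved. Over the same differentiation Pccb was present at 36.9 to 66.9 CPM (median 50) in 14 total RNA libraries.

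**Figure D5:**
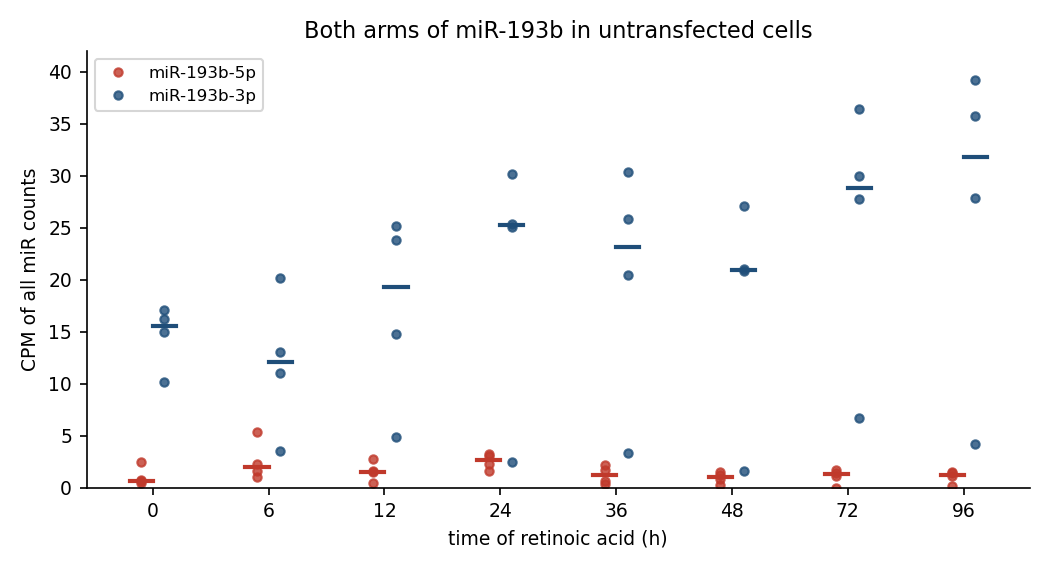
Level of the 5p arm (red) and the 3p arm (blue) of miR-193b in CPM of all miR counts against time of retinoic acid in hours, with 1 point per small RNA library (4 at each time) and a line at the median. The 5p arm stays at or below 5.38 CPM throughout, and the 3p arm has its highest value, 39.2 CPM, at 96 h.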

How the data were processed

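RNA libraries of transfected E14 cells were stranded mRNA libraries read from both ends. Per the labels and the submitters' processing notes, the tools were Trimmomatic 0.38 for trimming, STAR 2.6.1a for alignment to mm10, and RSEM 1.3.1 with Ensembl release 93 for quantification. The deposited values are expected counts per gene, unscaled, and were rounded to whole numbers here. Small RNA values are whole-number counts for each miR, deposited by the authors from miRDeep2.

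For each comparison, edgeR 4.0.16 (R 4.3.3) was run on genes whose mean count in its libraries exceeded 20, with TMM scaling, the quasi-likelihood test and the batch as a block, at a Benjamini-Hochberg adjusted p under 0.05. The batch numbers come from the sample titles, and the paper describes the replicates as biological. The titles do not say whether a batch number names the same cultures in both library sets. Deviations of same-numbered libraries from their group means correlated at 0.514, 0.27 and 0.168. Printed levels are CPM scaled by TMM over 47 mimic libraries, without the third miR-100-5p library, or over the inhibitor libraries. Tests were checked on simulated data.

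The comparison, the 26 gene lists and the rules were chosen with earlier results of these data known. Named genes are Pccb, the 12 genes per direction with the largest change against scrambled among those that passed both comparisons with a mean count of at least 50 and 1 direction in all 3 batches, the 6 of the falls with an 8mer or 7mer-m8 match in the 3′ UTR, and members of the lists that passed, of which 2 genes are not reported here. 3′ UTRs are the longest per gene in GENCODE M21, and sequences are from RefSeq on GRCm38.p6. Alternatives were DESeq2 1.42.0, its size factors, other filters and thresholds, no block, other references and each library left out.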

Additional observations from a re-analysis of the deposited data

Results flagged for a closer look

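In the small RNA libraries at 0 h, the level of miR-193b-5p was 2.44 CPM in 1 library and between 0.509 and 0.771 CPM in the other 3. The gap to the nearest of the others is a larger part of the group's range than Dixon's test allows for 4 values. In all, 16 groups were tested in this way, and chance flags about 1 group in 20.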

How the results depend on the processing

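The counts depend on the pairing by batch. Against scrambled there were 50 rises and 107 falls, and with no replicate block 0 and 0. Without the block the shares of genes tested that rose and fell against the 6 mimics went from 3.14% and 3.21% to 0.22% and 0.825%, the 6 mimics against scrambled gave 66 and 35, both comparisons together 0 and 0, and the inhibitor 0 and 0 as before. DESeq2 gave 91 and 218 against scrambled, 27 and 87 in both, and 1 and 2 for the inhibitor. Any total count above 0 gave 289 and 408 against scrambled, 57 and 116 in both, and 0.933% that rose against the 6 mimics. A mean count above 100 gave 90 and 191 against scrambled and 25 and 76 in both. An adjusted p under 0.01 gave 5 and 6 against scrambled, 0.857% and 1.52% against the 6 mimics, and 0 and 4 in both. A fit over 47 mimic libraries gave 107 rises against scrambled and 0.32% and 0.912% against the 6 mimics. No treatment as the reference gave 0 and 4, both in this comparison and in both together. With miR-1946b as a further reference there were 0.432% and 0.911% against the 6 mimics and 3 and 26 in both, and without miR-5615-3p 17 rose in both.

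With single libraries or batches left out, rises and falls ran from 18 to 150 and 96 to 314 against scrambled, from 0.165% to 2.53% and 0.455% to 3.52% against the 6 mimics, from 2 to 36 and 13 to 96 in both, from 182 to 809 and 119 to 672 for the 6 mimics against scrambled, and from 6 to 208 and 4 to 47 for the inhibitor. The cause was not tested. The log2 fold change of Pccb ran from -0.04 to 0.10 against scrambled, from -0.09 to 0.03 against the 6 mimics, from -0.06 to 0.11 for the 6 mimics against scrambled and from -0.04 to 0.20 with the inhibitor. Its sign turned without the second miR-193b-5p or scrambled library, without batch 2, and for the inhibitor without the first library of either group. The median of 8mer genes with the shortest 3′ UTRs was -0.041. Of 26 named genes none changed sign in any alternative against scrambled or the 6 mimics, 104 of 364 calls against scrambled and 96 of 520 against the 6 mimics were lost, and 12 (Arrdc3, Ctdsp1, Gmppa, Klf11, Ogfr, Pom121, Prrc2a, Sh3d19, She, Stat3, Ston2 and Trappc3) kept their call against the 6 mimics in all 20 alternatives.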
